A study of Mus musculus with 2 samples.

Results

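The genes described here belong to the enzyme families that remove acetyl and methyl groups from histones. They are the histone deacetylases (Hdac genes), the sirtuins (Sirt genes) and the histone demethylases with the related JmjC proteins (Kdm, Jmjd and Phf genes). Some members are known for other substrates, as stated below. Members were taken by name, as every probe set whose single gene symbol in the array's annotation was an Hdac, Sirt or Jmjd symbol, a Kdm symbol ending in a, b or c, Phf2 or Phf8. This gave 94 probe sets of 39 genes, out of 34958 probe sets with 1 symbol that name 18194 genes. Their transcripts were measured in total RNA of wild-type whole mouse embryos at midgestation (E14.5), on a pair of duplicate Affymetrix arrays that form 1 condition. The strain, the sex and the number of embryos behind each array are not given in the sources used here (the paper names NMRI and C57/BL6 for its E14.5 embryos in general), and nothing says whether the duplicates are separate embryos, so the spread between them may be technical. With 1 condition nothing was tested, and the values below are descriptions.

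Acetyl groups on histone tails loosen chromatin and go with transcription, and their removal goes with repression. The zinc-dependent deacetylases of class I act in the nucleus inside large corepressor complexes, those of class IIa move between nucleus and cytoplasm and bind MEF2 transcription factors, and the sirtuins use NAD as cosubstrate and are spread over nucleus, cytosol and mitochondria. Methyl groups are taken off by flavin-dependent enzymes (Kdm1a and Kdm1b) or by JmjC oxygenases, which need iron and 2-oxoglutarate and are each directed at particular lysines: some act on H3K4 marks of active promoters, others on the repressive H3K9 and H3K27 marks. In the embryo these enzymes work in dividing progenitors as well as in differentiating neurons, muscle and cartilage.

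Almost the whole family was above background in the E14.5 embryo. Of the 39 genes, 37 (94.9%) passed on both arrays, against 65.5% of all 18194 genes, and the exceptions were Hdac8 and Sirt4. Where a gene was taken at the median of its probe sets, 30 of the 39 (76.9%) passed, against 57.6% of all genes. As a measure of background, 81 probe sets of receptor genes for odours, pheromones and bitter taste, taken to be silent here, were ranked on each array, and their 95th percentile (27.9 on array 1, 33.8 on array 2) served as the bound. A gene passed when it had a probe set over the bound on array 1 and one on array 2. Signals over 3 times the bound on both arrays were found for 25 members (64.1%), compared with 42.3% of all genes, and over 10 times for 6 members (15.4%), close to the 14.3% of all genes. The 6 were Hdac1, Hdac2, Kdm1a, Kdm2b, Kdm5b and Kdm6b; with probe sets open to cross-hybridisation left out, which are marked by their suffix, Hdac2 and Kdm1a fell short and 4 of 38 remained, against 12.7% of all genes. The median over the members was 148.1 on array 1 and 147.4 on array 2, and that over all genes was 73.4 and 74.5, each gene taken at its probe set with the highest mean signal. Signals of different probe sets are not a scale of abundance, since each probe set hybridises with its own efficiency, so a multiple of the bound says how clearly a transcript was seen and not how much of it there was. In whole-embryo RNA a transcript carried by few cells and one made at a low level in many cells cannot be told apart.

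Genes with more probe sets pass more often, and the members have many. Of members with 1 probe set 14 of 16 passed (48.6% of all genes with 1), and all members with more passed: 9 of 9 with 2 probe sets (76.1% of all such genes), 7 of 7 with 3 (87.4%) and 7 of 7 with 4 or more (93.6%). The share was above that of all genes in each of these classes, by the least where there were 4 or more probe sets. With 7 members each, the classes of 3 and of 4 or more probe sets are too small to tell 7 of 7 from the shares of all genes.

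**Figure D1:**
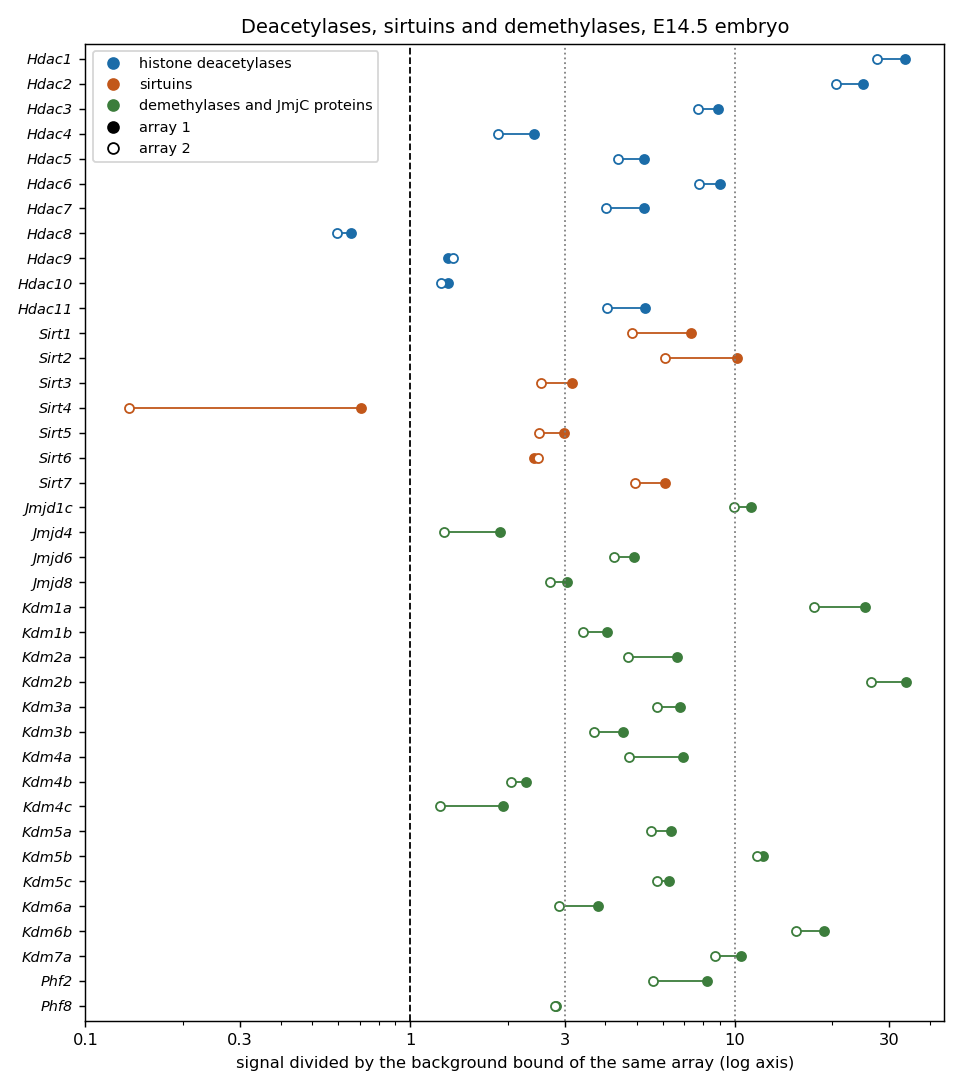
Each of the 39 genes is shown by its signal as a multiple of the bound, on a log axis, with array 1 filled and array 2 open; the dashed line is the bound and the dotted lines are 3 and 10 times the bound. Hdac8 and Sirt4 lie left of the bound on both arrays, and most points of array 2 lie left of those of array 1 because its bound is higher (33.8 against 27.9).

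Class I deacetylases, 4 genes, held both of the deacetylases over 10 times the bound and 1 of the genes below it. Of all genes 65.5% passed and 14.3% were over 10 times the bound. Hdac1, the catalytic subunit of the NuRD, SIN3 and CoREST corepressor complexes, had signals of 935.7 on array 1 and 931.2 on array 2, at least 27.6 times the bound. Its close paralogue Hdac2, which occupies the same complexes, had 693.9 and 694.7, and 310.7 and 308.6 in its next probe set, which is not of the kind open to cross-hybridisation. Hdac3, the enzyme of the NCoR and SMRT corepressors, was seen at 248.8 and 261.4, through its only probe set, which is of that kind. Hdac8, which works outside these complexes and removes acetyl groups from the cohesin subunit Smc3, had 18.3 and 20.1 in its only probe set, below the bound on both arrays. The duplicates were close for the 3 genes above background.

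Class IIa deacetylases, which hold MEF2 factors inactive in muscle, cartilage and vessels, were all above background, 4 of 4 against 65.5% of all genes. They lay between 1.31 and 4.36 times the bound on the array with the lower multiple. Hdac5 had signals of 146.9 on array 1 and 147.4 on array 2, and Hdac7, known for its role in developing endothelium, had 147.0 and 135.7. Hdac4, which restrains the maturation of cartilage cells, had 67.0 and 63.2, and Hdac9, acting in heart and skeletal muscle, had 36.6 and 45.9, only 1.31 times the bound on array 1. Of the remaining deacetylases, Hdac6, the cytoplasmic enzyme of tubulin, had 251.0 and 262.9, and Hdac11, the single class IV member, 148.1 and 136.3. Hdac10, a polyamine deacetylase, passed close to the bound at 36.6 and 42.1.

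Sirtuins passed in 6 of 7 cases, against 65.5% of all genes. None was over 10 times the bound on both arrays, where only 14.3% of all genes were. The sirtuins of nucleus and cytosol, 4 genes, were all above background. Sirt1, the nuclear deacetylase of histones and transcription factors, had signals of 205.5 on array 1 and 163.3 on array 2. Sirt2, which acts mainly in the cytosol and on tubulin, had 283.5 and 206.9, and Sirt7, the sirtuin of the nucleolus, had 170.2 and 166.5. Sirt6, which acts on H3K9 and H3K56 acetylation and in DNA repair, had 67.4 and 84.0. None of the 3 mitochondrial sirtuins was over 3 times the bound on both arrays, and 42.3% of all genes were. So few genes cannot show a difference from all genes. Sirt3, the main deacetylase of the organelle, had 88.0 and 85.6. Sirt5, which removes succinyl and malonyl groups, had 82.9 and 84.6 (60.9 and 53.4 in the next probe set, not open to cross-hybridisation). Sirt4, a mitochondrial enzyme with weak deacetylase activity, had 19.7 and 4.6 in its single probe set. Both values lie below the bound, so their ratio is not a measured difference.

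The demethylases and JmjC proteins were above background in full, 21 of 21 genes, against 65.5% of all genes. Over 3 times the bound on both arrays were 15 of them, against 42.3% of all genes. Counted by probe set, 37 of their 66 passed on both arrays, near the 55.6% of all probe sets with 1 symbol. Among the flavin-dependent enzymes, Kdm1a (LSD1), which removes H3K4 methyl groups in the CoREST complex, had signals of 701.9 on array 1 and 594.0 on array 2, but 197.2 and 214.2 in its other probe set. Kdm1b, known for setting up imprints in oocytes, had 112.5 and 115.4. In the KDM2 and PHF8 group, Kdm2b, which brings a Polycomb complex to CpG islands, had 938.7 and 889.0, and 503.8 and 491.2 in its other probe set; the first of each pair of probe sets of Kdm1a and Kdm2b is open to cross-hybridisation. Its paralogue Kdm2a, also a CpG-binding H3K36 demethylase, had 185.4 and 158.5. Kdm7a, acting on H3K9 and H3K27, had 292.2 and 293.5, and Phf2, an H3K9 demethylase, had 230.0 and 189.8. Phf8, the X-linked member of this group, had 78.4 and 94.5. On the array with the lower multiple, this group ran between 2.80 times the bound for Phf8 and 26.3 times for Kdm2b.

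The KDM3 and KDM4 demethylases of H3K9 that the naming rule took in were all above background, 3 genes each, against 65.5% of all genes. Over 3 times the bound on both arrays were 3 of 3 KDM3 enzymes and 1 of 3 KDM4 enzymes, against 42.3% of all genes. Groups of 3 genes cannot show a difference between KDM3 and KDM4. Jmjd1c had signals of 312.6 on array 1 and 335.9 on array 2. Kdm3a, required for sperm formation and in metabolism, had 188.9 and 195.5, and Kdm3b had 126.1 and 125.0. Of the KDM4 enzymes, which take methyl groups off trimethylated H3K9 and H3K36, Kdm4a had 193.0 and 159.3. Kdm4b had 63.5 and 69.2, and Kdm4c 53.9 and 41.8, which is 1.24 times the bound on array 2. Each of the genes Kdm4b and Kdm4c has 1 probe set with a single symbol.

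Erasers of the H3K4 and H3K27 trimethyl marks, the opposing marks of trithorax and Polycomb, were all above background (3 KDM5 and 2 KDM6 genes). They have 3 to 9 probe sets each. Of all genes, 87.4% with 3 probe sets and 93.6% with 4 or more passed, so these counts do not set the erasers apart. By probe set, 9 of 19 passed for KDM5 and 4 of 7 for KDM6, against 55.6% of all probe sets with 1 symbol. Kdm5b, an H3K4 demethylase of proliferating progenitors, had signals of 342.1 on array 1 and 394.9 on array 2. Kdm5a, first known as a partner of the retinoblastoma protein, had 177.6 and 186.5, and Kdm5c, an X-linked gene mutated in intellectual disability, had 175.7 and 195.6. Of the H3K27 demethylases, Kdm6b had 525.2 and 521.2, over 10 times the bound, and the X-linked Kdm6a (UTX) 105.9 and 97.6, just under 3 times the bound on array 2. The remaining JmjC proteins are not established as histone lysine demethylases. Jmjd6, a lysyl hydroxylase of splicing factors, had 136.8 and 143.9. Jmjd8, a protein of the endoplasmic reticulum, had 84.7 and 91.2, and Jmjd4, which hydroxylates a translation termination factor, passed near the bound at 52.9 and 42.9.

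Kdm5c and Kdm6a have copies on the Y chromosome, Kdm5d and Uty, and these were above background as well. Kdm5d had signals of 88.4 on array 1 and 83.4 on array 2, and Uty 47.4 and 60.9, each through 1 of its probe sets. Another Y-linked gene, Eif2s3y, had 108.3 and 128.7, through 1 of its 2 probe sets. Xist, which is transcribed from the inactive X chromosome, was barely over the bound at 37.1 and 34.8. Probe sets named for Y-linked genes thus gave signals above the bound on both arrays. Whether the probe sets of the X-linked members also bind the transcripts of the Y-linked copies, or the reverse, was not tested.

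Probe sets of 1 gene often fell on different sides of the bound. Of the 94 member probe sets, 59 (62.8%) were above it on both arrays, against 55.6% of all probe sets with 1 symbol, 2 on 1 array only and 33 on neither. Among the 23 members with more than 1 probe set, 17 (73.9%) had one above the bound on both arrays and another that was not, and the same held for 64.4% of all genes with several probe sets and at least 1 above. In 7 of the 17 a single probe set carried the gene: Hdac9, Hdac10, Jmjd4, Kdm3b, Kdm4a, Phf2 and Phf8. Only Hdac4, Hdac7, Hdac11, Jmjd1c, Kdm1a and Kdm2b had all their probe sets above.

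Kdm5c, with 9 probe sets the member with most, had 4 above the bound and values from 0.9 to 175.7 on array 1 and from 0.3 to 195.6 on array 2. One further probe set of Kdm5c passed on array 1 only, with signals of 39.3 and 24.5, and likewise one of Kdm6b, with 28.8 and 30.6. For Kdm2a 3 of 7 probe sets passed, with array 1 signals from 3.8 to 185.4, and for Kdm5a 3 of 6, from 9.9 to 177.6. For Kdm7a 2 of 5 passed, from 1.2 to 292.2. In the smaller sets the gap was as wide: the probe sets of Hdac2 read 693.9, 310.7 and 7.6 on array 1, and 694.7, 308.6 and 5.9 on array 2. Those of Kdm4a read 193.0 and 1.9 on array 1, and 159.3 and 1.0 on array 2. Kdm6a and Kdm5b passed with 2 of 4 probe sets each, Sirt5 and Jmjd6 with 2 of 3, Phf8 with 1 of 3 and Phf2 with 1 of 4. With the median of its probe sets taken for each gene, Hdac9, Hdac10, Kdm2a, Kdm5c, Kdm7a, Phf2 and Phf8 no longer passed on both arrays.

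Member probe sets were also split by the sequence record from which they were designed, after their values were seen. The kind of record was read from the accession prefix alone. Any listed record without the prefix of an expressed sequence tag was counted as mRNA or cDNA. Member probe sets with a record counted as mRNA or cDNA passed in 22 of 27 cases (81.5%), and 56.8% of all such probe sets did. Those designed from an expressed sequence tag (EST), a single sequencing read of a cDNA clone, passed in 30 of 58 cases (51.7%, against 53.8% of all). Of probe sets with no record listed 7 of 9 passed (77.8%, against 60% of all). The 5 member probe sets of the mRNA kind that did not pass belong to Hdac8, Sirt4, Hdac9 (2.6 on array 1 and 23.4 on array 2), Kdm2a (25.7 and 15.9) and Kdm5c (5.1 and 2.4). Hdac8 and Sirt4 have no other probe set. Which part of a transcript each probe set covers was not examined.

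**Figure D2:**
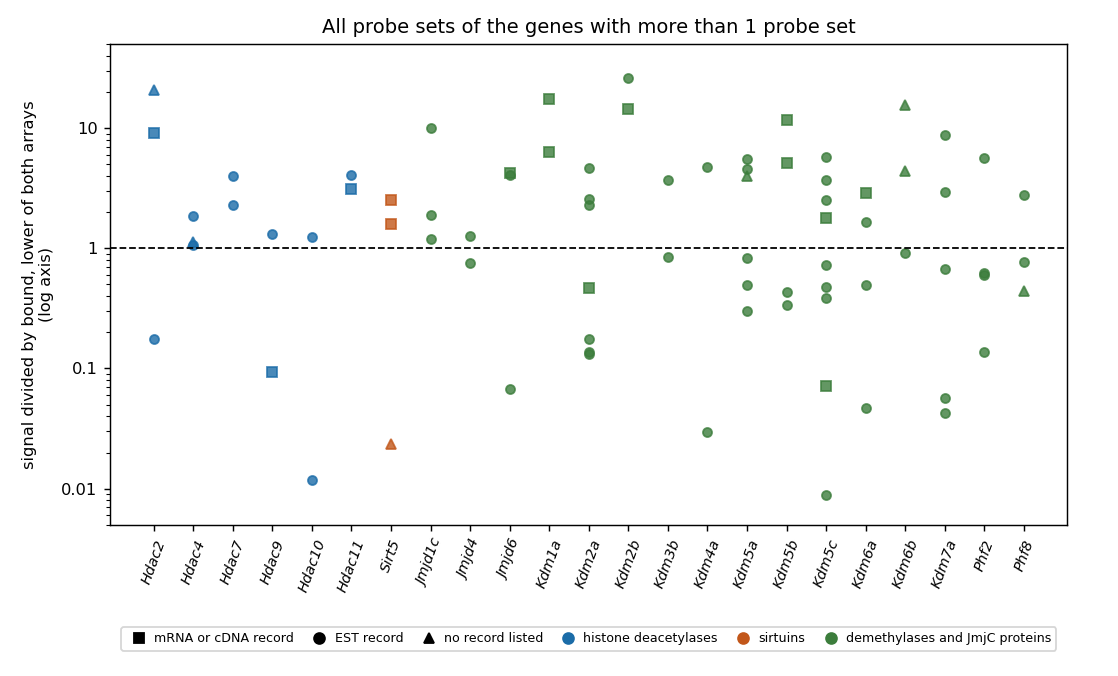
Every probe set of the 23 genes with more than 1, as its signal divided by the bound, the lower of both arrays, on a log axis. Squares have records counted as mRNA or cDNA, circles were designed from ESTs and triangles have no record listed. In 17 of the 23 genes the points fall on both sides of the dashed bound.

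The duplicates agreed within 1.5-fold for every member probe set above background on both arrays, as they did for most probe sets. Differences were taken as the log2 signal of array 2 minus that of array 1 in probe sets above the bound on both arrays, centred on the median of all of them. None of the 59 member probe sets differed by more than 1.5-fold, and only 3.24% of all 19434 did, so the members were near the share of all. The filter left out probe sets that passed on 1 array only, such as one of Kdm5c at 39.3 and 24.5. The median difference of the members was 0.004, with 30 higher and 29 lower on array 2, and the SD was 0.20, against 0.25 over all probe sets. Differences larger than that SD of 0.25 were found in 13 member probe sets (22.0%), and in 25.9% of all probe sets.

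The widest gaps were at Jmjd1c and Kdm5a, and in each gene the other probe sets did not share them. One Jmjd1c probe set had signals of 52.4 on array 1 and 77.3 on array 2, a log2 difference of 0.56, whereas the probe set with the strongest signal had 312.6 and 335.9 and the remaining one 43.7 and 40.0. One Kdm5a probe set had 126.8 and 175.5, a difference of 0.47, beside 177.6 and 186.5 and 139.9 and 134.5 in the others above the bound. Among the lower values on array 2, Sirt2 stood at -0.45 and Sirt1 at -0.33, each from its only probe set, and Sirt6 lay on the other side at 0.32. One Hdac11 probe set (138.4 and 104.6) was at -0.40, and the other (148.1 and 136.3) showed less of it. Kdm4c, near the bound, was at -0.36. Each of these sets a single array against its duplicate, and no biological spread can be read from them.

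**Figure D3:**
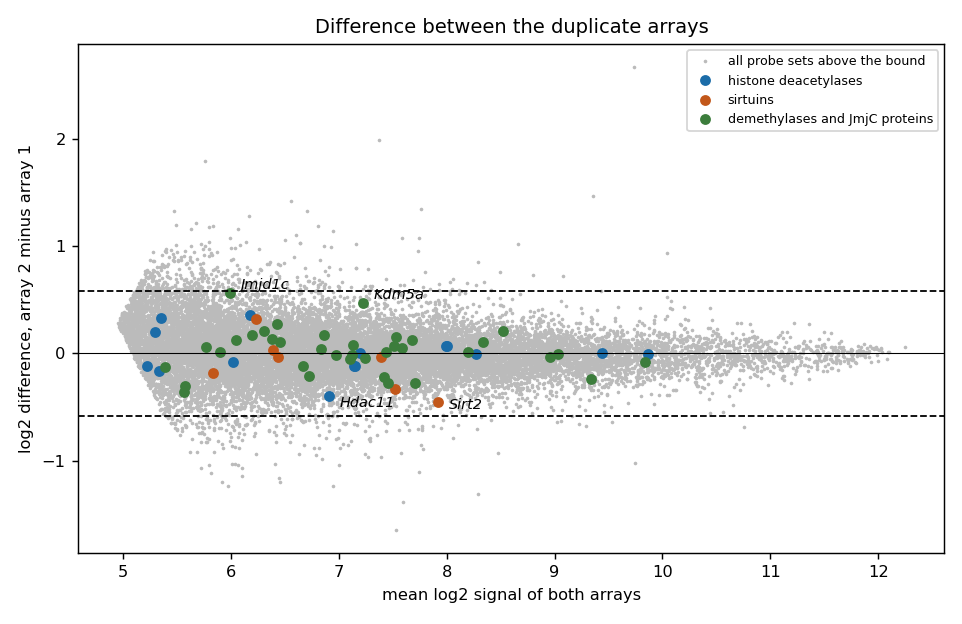
Log2 difference of array 2 minus array 1 against the mean log2 signal, for all 19434 probe sets with 1 symbol above background on both arrays (grey) and for the 59 of the members (colours). The dashed lines mark 1.5-fold, and all member points lie between them, from -0.45 for Sirt2 to 0.56 for Jmjd1c.

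Partners of the deacetylases and demethylases in corepressor complexes, from lists of known subunits, were above background wherever they were measured. Of all genes 65.5% passed and 42.3% were over 3 times the bound on both arrays. Many listed genes have several probe sets, and such genes pass more often. Measured were 12 of 12 listed names for NuRD, 12 of 13 for SIN3, 9 of 10 for CoREST and 3 of 5 for NCoR and SMRT. All 12 measured genes of the nucleosome remodelling and deacetylase complex NuRD passed and all were over 3 times the bound, among them the remodellers Chd3 (430 and 365) and Chd4 (465 and 407). So did all 12 measured SIN3 complex genes, 8 of them over 3 times the bound, with the scaffolds Sin3a (118 and 116) and Sin3b (1178 and 1073), and all 9 CoREST genes, with the scaffold Rcor1 at 466 and 371 and the neuronal gene repressor Rest at 295 and 285. Of the NCoR and SMRT complex Tbl1x, Tbl1xr1 and Gps2 were measured and passed. The MEF2 factors that class IIa enzymes bind passed in 3 of 4 cases, with Mef2a at 337 and 304, Mef2c at 508 and 436.5, Mef2d at 219 and 190, and Mef2b below the bound at 2.3 and 11.6.

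The enzymes that write the marks were also seen. Beside the counts of these lists stand the shares of all genes, 65.5% above background and 42.3% over 3 times the bound. All 10 histone acetyltransferases passed, each over 3 times the bound, including Ep300 (287 and 308) and Crebbp (428 and 421), the coactivators of many transcription factors. All 16 measured H3 lysine methyltransferases passed, with the trithorax-type enzymes Kmt2a (163 and 138) and Kmt2b (289 and 229). Among readers of acetylated lysine, Brd2 and Brd3 were over 10 times the bound, and Brdt, a reader of the testis, was below it at 26.8 and 23.9. JmjC genes outside the naming rule passed in 9 of 10 cases, the exception being Kdm4d at 16.1 and 15.0, a gene known from the testis. Genes of NAD synthesis, which supply the cosubstrate of the sirtuins, passed in 6 of 9 cases, near the 65.5% of all genes. Nampt, the rate-limiting enzyme of the salvage route, had signals of 100.9 and 101.3, and Nmnat1 (17.3 and 15.2), Nmrk1 (22.1 and 28.2) and Nmrk2 (3.8 and 3.1) did not pass. As a check of the tissue, markers of liver, skeletal muscle, cartilage, neurons, red cells and epidermis passed in 9 of 9 cases.

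**Figure D4:**
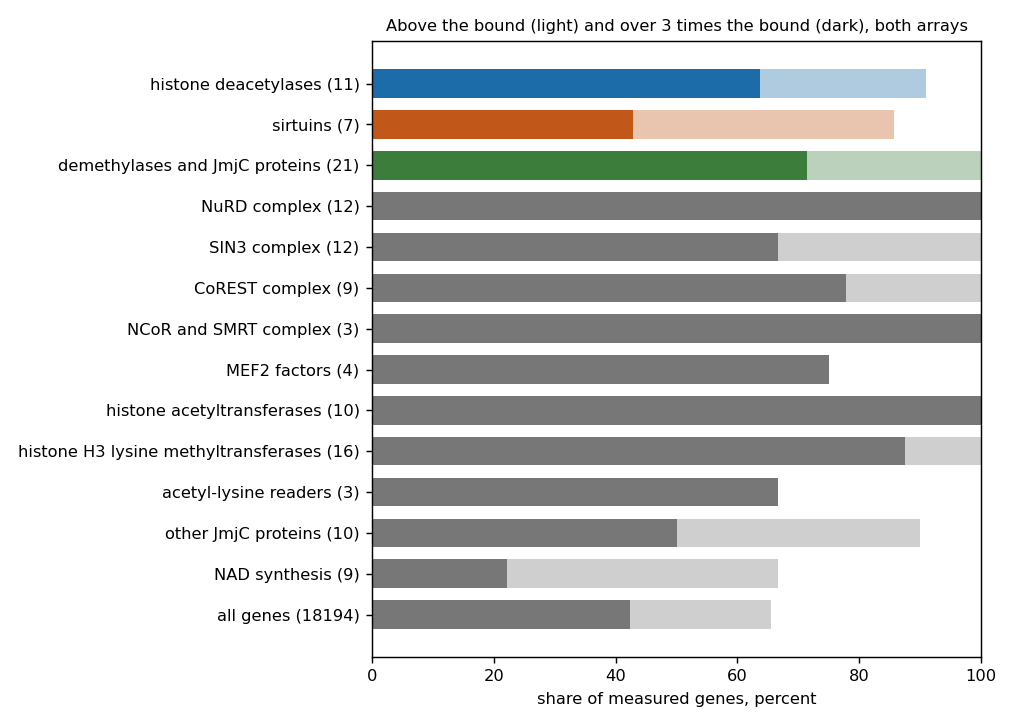
Share of measured genes above the bound on both arrays (light) and over 3 times the bound on both (dark), in percent, with the number of measured genes in parentheses. The demethylases reach 100% and the sirtuins show the smallest dark share among the member groups (3 of 7 genes). All genes stand at the bottom with 65.5% and 42.3%, and the dark share of the sirtuins is near theirs. The groups differ in probe sets: 37 of 66 passed for the 21 demethylases and JmjC proteins, and 7 of 9 for the 7 sirtuins.

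The promoters of the members were rich in CpG, as are those of most genes above background. RefSeq promoter sequences (build GRCm38.p6, 300 bases from 250 before to 50 after the start) were matched by symbol for 31 of the 39 genes. At least 1 start with an observed to expected CpG ratio of 0.6 or more was found in 28 of 31 members (90.3%), against 59.97% of 14453 measured genes, 75.7% of those above background and 28.7% of those not above it. The exceptions were Hdac8 (0.33), Hdac9 (0.20 at the richer of its starts) and Sirt5 (0.52). The GC box GGGCGG, searched on both strands, was present in 24 of the 31 (77.4%, against 57.3% of all measured genes), and the letters TATAAA, likewise on both strands, in 2 (6.5%, against 11.5%), which are Hdac8 and Hdac9. Among all genes above background the GC box was present in 68.7% and TATAAA in 9.15%, nearer to the members. Counted by window and not by gene, the GC box letters occurred in 27 of 44 member windows and in 35.7% of all 32851. TATAAA occurred in 2 of the 44 and in 13.6% of all. These matches are letters in a window and do not show a bound factor.

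Kdm5b is a demethylase over 10 times the bound, and Hdac2 a deacetylase that is so only with probe sets open to cross-hybridisation. Sirt4 and Hdac8 are the genes below the bound. The promoters of these genes are shown as examples that differ in CpG content. They lie at chr1:134559928-134560227 (+ strand), chr10:36974294-36974593 (+ strand), chr5:115484248-115484547 (- strand) and chrX:102505109-102505408 (- strand), and every CpG is in capitals.
Kdm5b: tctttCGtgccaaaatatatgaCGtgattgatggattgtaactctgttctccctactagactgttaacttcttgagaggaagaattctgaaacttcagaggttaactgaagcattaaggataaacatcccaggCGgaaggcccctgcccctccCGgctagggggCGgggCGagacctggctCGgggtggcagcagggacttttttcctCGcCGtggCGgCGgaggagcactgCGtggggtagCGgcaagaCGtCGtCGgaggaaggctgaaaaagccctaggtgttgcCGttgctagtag
Hdac2: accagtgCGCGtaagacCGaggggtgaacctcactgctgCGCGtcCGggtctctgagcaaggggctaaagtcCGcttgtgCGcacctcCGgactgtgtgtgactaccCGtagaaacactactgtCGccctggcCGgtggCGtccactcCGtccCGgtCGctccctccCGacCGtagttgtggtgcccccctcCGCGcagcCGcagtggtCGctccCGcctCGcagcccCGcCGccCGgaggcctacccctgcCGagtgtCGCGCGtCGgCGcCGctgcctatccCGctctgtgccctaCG
Sirt4: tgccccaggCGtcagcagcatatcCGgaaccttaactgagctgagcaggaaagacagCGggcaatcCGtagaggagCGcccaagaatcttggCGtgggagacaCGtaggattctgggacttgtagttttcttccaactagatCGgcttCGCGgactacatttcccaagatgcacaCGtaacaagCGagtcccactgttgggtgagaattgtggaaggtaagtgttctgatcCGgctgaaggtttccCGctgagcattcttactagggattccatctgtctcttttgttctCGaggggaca
Hdac8: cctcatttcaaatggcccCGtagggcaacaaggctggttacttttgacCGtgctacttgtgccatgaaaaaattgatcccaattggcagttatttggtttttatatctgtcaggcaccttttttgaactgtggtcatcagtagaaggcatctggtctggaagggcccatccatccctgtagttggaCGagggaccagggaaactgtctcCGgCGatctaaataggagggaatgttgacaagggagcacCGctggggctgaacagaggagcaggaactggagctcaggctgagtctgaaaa

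The Kdm5b window holds 17 CpG dinucleotides and that of Hdac2 36, and those of Sirt4 and Hdac8 hold 15 and 6. Over all member windows the count ran from 0 (for example at 1 start of Hdac9) to 65 (Kdm7a), so the examples do not span it. The CpG count did not follow the multiples of the bound gene by gene, since Kdm4a and Kdm5c, both over 3 times the bound, have 13 each, fewer than Sirt4. Of the genes below background, Sirt4 has a ratio of 0.75 and Hdac8 of 0.33, so they fall on different sides of the 0.6 limit. Of the members with a promoter sequence that lay just above the bound, Hdac9 had the lowest CpG content, whereas Kdm4c (0.89) and Jmjd4 (0.78) were CpG-rich.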

How the data were processed

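Total RNA of E14.5 embryos was measured on 2 Affymetrix Mouse Genome 430 2.0 arrays, grouped as 1 condition by the sample labels. The authors made the deposited signal intensity values with GCOS 1.3 (named in the submitters' processing notes) on a linear scale, with each array scaled to a mean of 100 once 2% had been trimmed at either end. Present calls were not used here. Probe sets were named from the platform annotation, and 932 with several symbols and 9211 not listed there named no gene. No member symbol changed in the RefSeq table (GRCm38.p6, used for names). Each signal was set against the bound of its own array, and log2 differences were centred on the median. The members and the gene lists were chosen with earlier results of these data known. Every member is named, with values; of related lists, the genes below background where they are 5 or fewer and up to 4 others. Of 147 names in the lists, 138 had a probe set with 1 symbol, and the others were not analysed here. Alternatives were other bounds, other rules for several probe sets, leaving out probe sets whose suffix (_s_at or _x_at) marks possible cross-hybridisation, each array alone, no centring, quantile normalization, and no filter with a pseudocount of 16. No test was run. The number of arrays limits the precision. The steps were run on simulated arrays. Expressed probe sets were drawn there clear of the bound, so calls for signals near the bound were not tested. Computations used Python 3.11.15, pandas 2.3.3, numpy 2.4.6, scipy 1.17.1 and matplotlib 3.10.9.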

Additional observations from a re-analysis of the deposited data

Results flagged for a closer look

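A pair of probe sets carries the name of a Jmjd or Kdm gene together with that of another gene and was therefore outside the members, yet gave signals above the bound. The probe set shared by Jmjd7 and Gm28042 had signals of 147.2 on array 1 and 153.3 on array 2. Jmjd7 has no probe set of its own. The probe set shared by Kdm6b and 1700064E03Rik had 111.7 and 165.8, the higher value on array 2. Which of the genes each signal comes from was not tested.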

How the results depend on the processing

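Above background were 37 members with the bound at the 90th or 99th percentile of the receptor probe sets or at the array median, with either array alone, with 1 probe set required on both arrays and with updated symbols. Without probe sets open to cross-hybridisation 36 passed, since Hdac3 had no probe set left, and 4 in place of 6 members were over 10 times the bound. With the median of the probe sets of each gene 30 passed, and the median member signal moved to 86.8, against 147 with the best probe set; the median over all genes was 46.9 under that rule and 73.9 with the best probe set. That median was 145 with those probe sets left out and 147.4 to 148.1 with either array alone. Member probe sets above background ranged from 51 to 61, and genes over 3 times the bound from 24 to 28. Without a filter and with a pseudocount of 16, 2 of 94 member probe sets differed by more than 1.5-fold (4.01% of all), one of Hdac9 and that of Sirt4, both below the bound; the other alternatives gave 0. The median difference between arrays lay between -0.012 and 0.015. No paired analysis was possible because there is 1 condition.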
